A study of Rattus norvegicus with 6 samples.

Results

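A set of 161 gene IDs was at least 2 times more abundant in livers of carcinogen-treated rats given N-acetylcysteine (NAC) than in either of the other groups of the study, while control and carcinogen-only livers lay close to each other. They were found among 16898 IDs that passed an expression filter, of 43360 in the count tables. Levels are given as CPM, read counts set against a library size that was scaled by the trimmed mean of M values (TMM), which corrects for differences in RNA composition. The IDs were selected on their CPM values: an ID was taken when its mean in the carcinogen-only group was 2 to 1000 CPM, the ratio of the carcinogen-only to the control mean was between 0.67 and 1.5, the mean with NAC was at least 2 times both other means, and both libraries with NAC lay above the other 4 libraries. All 6 libraries and all 3 pairs of groups thus entered the choice. The levels, ratios and calls of these IDs over all 6 libraries are therefore descriptions of the chosen set and carry no evidence for the pattern that chose them.

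The libraries were made from poly(A)-selected liver RNA of male Fischer-344 rats, an inbred strain, after 16 weeks of treatment. The design lists 18 rats in 3 groups. Control rats received daily oral 0.5% carboxymethyl cellulose. The HCC group, named for hepatocellular carcinoma, received diethylnitrosamine (DEN) at 50 mg/kg weekly by intraperitoneal injection, followed by oral 2-acetylaminofluorene (2-AAF) at 25 mg/kg. Rats of the HCC/NAC group were given both carcinogens at these doses together with oral NAC at 300 mg/kg daily. No group received NAC without the carcinogens, so an effect of NAC alone on these IDs cannot be told apart from one that needs the carcinogens. Each group's 2 replicates came from pooled RNA of 5 animals, per the labels, whose extraction text says mice where the organism label says rat. The sample titles carry the tag biol_rep, which points to biological replication, but do not state whether the 2 pools of a group held different animals. If each library had its own 5 animals, the 18 rats listed would not be enough. If each pool held 5 of the 18 rats, the pools of at least some groups therefore shared animals. If the 5 were all the animals pooled for a group, its 2 pools held the same animals. The spread between the 2 pools may therefore be technical, and no value belongs to a single animal. In such bulk RNA, a larger share of a cell type and more RNA per cell cannot be told apart.

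DEN is converted by liver cytochrome P450 enzymes into an alkylating agent that damages DNA, and 2-AAF is likewise activated in the liver to reactive esters. NAC is deacetylated to cysteine, the amino acid whose supply commonly limits the synthesis of glutathione, the main soluble thiol of hepatocytes. Glutathione transferases use it to conjugate reactive electrophiles. Cysteine is also oxidised to taurine and sulfate in the liver, and cellular thiols bear on the KEAP1 sensor that holds back the transcription factor NRF2, the pathway named in the series title. Which proteins the 161 IDs encode, and whether any belongs to these pathways, was not analysed here, because the count tables identify genes by Ensembl IDs without symbols and 0 of the 43360 IDs could be paired with a name. For the same reason the hepatocyte identity of the tissue and the content of other cell types were not checked against marker genes, no promoter sequence could be assigned to an ID, and the IDs are described by their levels.

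The requirement on the HCC level left 11843 of the 16898 IDs, and that on the ratio of HCC to control left 7198. Of these, 161 reached 2 times both other means with HCC/NAC, and all 161 had both HCC/NAC libraries above the other 4, so the last condition removed none. For comparison, both HCC/NAC libraries lay above the other 4 for 18.6% of all IDs tested. The chosen IDs made up 5.54% of the IDs in the window at an HCC level of 2 to 5 CPM (55 of 992), 3.03% at 5 to 10 CPM (42 of 1385), 1.39% at 10 to 100 CPM (60 of 4321) and 0.8% at 100 to 1000 CPM (4 of 500). The share was thus larger at lower levels, and 97 of the 161 had an HCC level under 10 CPM. Replicates also lay farther apart among such IDs: the median fold between the HCC/NAC libraries was 1.22 at 2 to 5 CPM and 1.06 at 10 to 100 CPM.

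The HCC/NAC part of the pattern was met by more IDs outside these limits. At an HCC level of 2 to 1000 CPM, 258 IDs had HCC/NAC at least 2 times both other means and both libraries above the other 4. Besides the 161, 93 of them had an HCC mean over 1.5 times control and 4 an HCC mean under 0.67 times control. Without any limit on the HCC level there were 925 such IDs, of which 654 lay under 2 CPM in HCC and 13 above 1000 CPM. IDs above 1000 CPM in HCC are therefore outside the set by its rule.

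Summed over the 161 IDs, control livers held 2936 and 2877 CPM in replicates 1 and 2, HCC livers 3028 and 2922 CPM, and HCC/NAC livers 8266 and 7937 CPM. The group means were 2906 ± 41.7, 2975 ± 75 and 8102 ± 233 CPM (SD, n = 2 each). The most abundant ID took a large part of each sum, and without it the mean sum was 2180 ± 32.5 CPM for control, 2355 ± 26.9 CPM for HCC and 6396 ± 115 CPM for HCC/NAC livers (SD, n = 2 each). As a plain share of all counts, without TMM scaling, the set took 0.266% ± 0.0052 of control counts, 0.353% ± 0.012 of HCC counts and 0.743% ± 0.024 of HCC/NAC counts (SD, n = 2 each). On that scale HCC lay between the other groups and not beside control.

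The median member stood at 7.55 CPM in control livers, 7.93 CPM with the carcinogens and 21.4 CPM with carcinogens and NAC. Group means ranged from 1.47 to 726 CPM in control, from 2.04 to 620 CPM in HCC and from 4.13 to 1706 CPM in HCC/NAC livers. The ratio of the HCC/NAC mean to the higher of the other 2 means had a median of 2.40 and a highest value of 7.48. It was 2 to 2.5 for 94 IDs, 2.5 to 3 for 37, 3 to 4 for 20 and at least 4 for 10. The set therefore lay mostly near its lower limit, with a short tail of larger ratios. The lowest HCC/NAC library exceeded the highest of the other 4 by a median of 2.05-fold, by at least 1.5-fold for 154 IDs and by at least 2-fold for 94. No ID had a count of 0 in any library. The lowest count was 43, in a control library, and the lowest in an HCC/NAC library was 104.

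**Figure D1:**
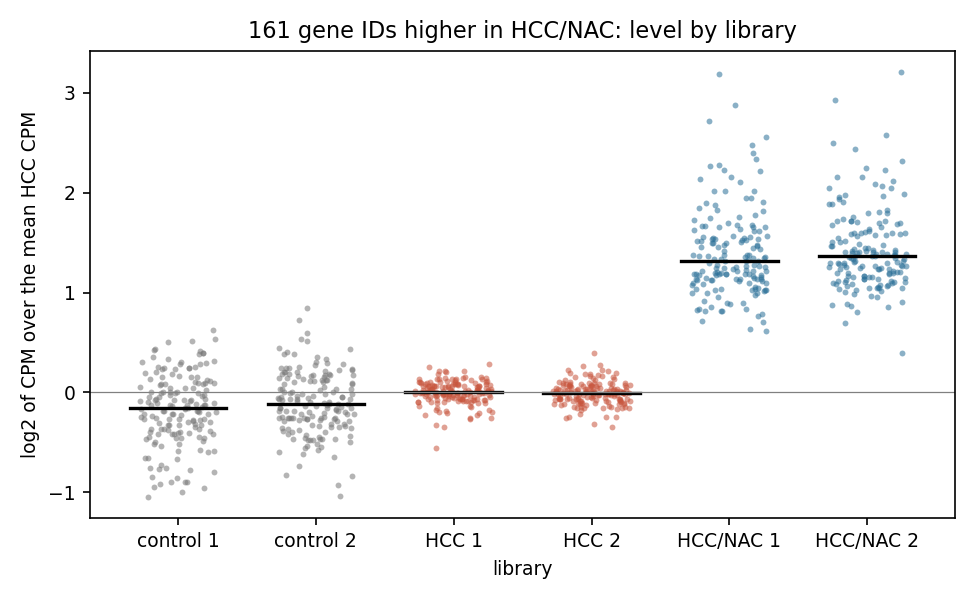
Level of each of the 161 IDs in each library, as the log2 of its CPM over its mean HCC CPM (points), with the median of the library (line). The medians were -0.16 and -0.12 in the control libraries and 1.32 and 1.36 in the HCC/NAC libraries; the HCC libraries lie around 0 because their mean is the reference.

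The 2 largest ratios belonged to ENSRNOG00000030788 and ENSRNOG00000002802, the only members above 5-fold. ENSRNOG00000030788 had 1.97 and 2.78 CPM in the control libraries, 2.40 and 2.35 CPM in HCC and 17.47 and 18.03 CPM in HCC/NAC, with 68, 92, 108, 94, 580 and 586 counts. Both HCC/NAC libraries stood far above the other 4, and the HCC values lay inside the range of the control values. Its means were 2.37 ± 0.57, 2.37 ± 0.036 and 17.8 ± 0.40 CPM (SD, n = 2 each), and the fitted log2 fold change was 2.90 ± 0.25 (SE) against HCC and 2.90 ± 0.25 (SE) against control, with adjusted p = 4.49e-06 and 1.66e-06 (edgeR quasi-likelihood test). The rule used both contrasts and the ID is shown for its large ratio, so nothing is read from these p-values. HCC and control differed by 0.00058 ± 0.25 on the log2 scale (SE; edgeR, adjusted p = 0.999).

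ENSRNOG00000002802 had 7.12 and 5.22 CPM in control, 4.57 and 4.69 CPM in HCC and 42.2 and 42.8 CPM in HCC/NAC livers. The groups did not overlap, and HCC was the lowest. Its means were 6.17 ± 1.3, 4.63 ± 0.084 and 42.5 ± 0.45 CPM (SD, n = 2 each). The log2 fold change was 3.20 ± 0.18 (SE) against HCC and 2.78 ± 0.17 (SE) against control, with adjusted p = 1.00e-07 and 8.80e-08 (edgeR). Nothing is read from these p-values either, since the rule used both contrasts. HCC against control gave -0.42 ± 0.18 (SE) on the log2 scale, with adjusted p = 0.0942 (edgeR). This estimate depended on single control libraries, at -0.55 without control replicate 2 and -0.18 without control replicate 1. With no scaling beyond the library total it was -0.042.

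The other 8 IDs with a ratio of at least 4 covered a wide range of levels. Over all 10, mean HCC/NAC levels ranged from 9.88 to 218 CPM with a median of 45.4 CPM. Their HCC/NAC replicates differed by 1.01- to 1.30-fold, and the lowest HCC/NAC library exceeded the highest other library by 3.29- to 6.29-fold. The most abundant of the 10, the fourth by ratio, had 35.5 and 33.0 CPM in control, 51.0 and 43.7 CPM in HCC and 210.9 and 224.5 CPM in HCC/NAC livers. Its HCC libraries also lay above control, by 0.47 ± 0.088 on the log2 scale (SE; edgeR, adjusted p = 0.00129), and the step from HCC to HCC/NAC was larger, at 2.20 ± 0.088 (SE). The seventh by ratio showed the opposite order of the lower groups, with 31.9 and 32.9 CPM in control, 24.1 and 24.4 CPM in HCC and 142.8 and 144.8 CPM in HCC/NAC livers. HCC against control gave -0.42 ± 0.081 on the log2 scale (SE; edgeR, adjusted p = 0.00154), so that this ID was called lower with the carcinogens alone and was highest with carcinogens and NAC.

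**Figure D2:**
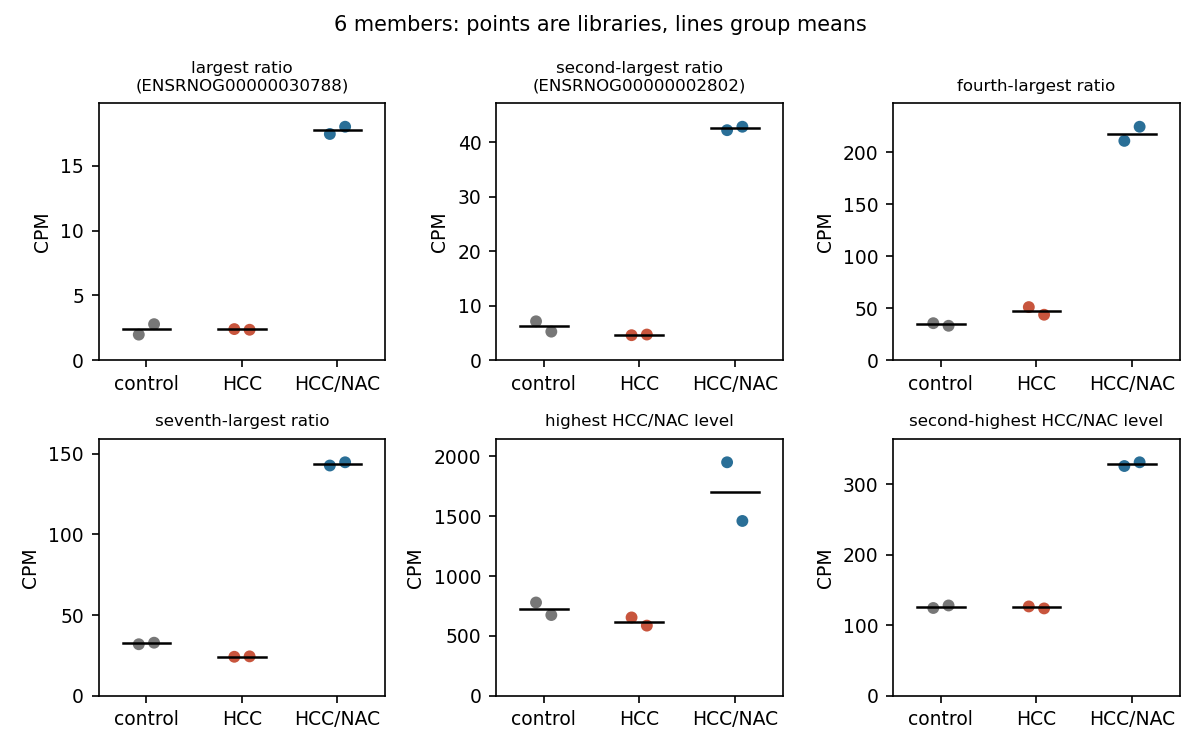
CPM of 6 members in the 6 libraries (points; linear axes from 0) with group means (lines): 4 of the 10 IDs with a ratio of at least 4, and the 2 IDs with the highest HCC/NAC level. Both HCC/NAC libraries lie above the other 4 in each panel, and the most abundant ID has the widest gap between them, 1951 against 1460.5 CPM.

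Only 1 member exceeded 1000 CPM with NAC. It had 778.9 and 674.0 CPM in control, 654.0 and 585.6 CPM in HCC and 1951 and 1460.5 CPM in HCC/NAC livers. Both HCC libraries lay below both control libraries, and the HCC/NAC libraries differed from each other by more than the whole range of the other 4. Its HCC/NAC mean of 1706 ± 347 CPM (SD, n = 2) was 2.35 times the higher of the other means. The next most abundant ID was tighter, with 124.3 and 127.9 CPM in control, 126.5 and 123.7 CPM in HCC and 325.6 and 330.9 CPM in HCC/NAC livers. Here the HCC values lay within or just below the control range, and HCC against control gave -0.012 ± 0.054 on the log2 scale (SE; edgeR, adjusted p = 0.897). Against HCC its log2 fold change with NAC was 1.39 ± 0.055 (SE). The third by level, at 99.0 and 100.8 CPM in control, 101.8 and 106.8 CPM in HCC and 238.0 and 269.6 CPM in HCC/NAC livers, had both HCC libraries just above control. The fifth by level combined abundance with a larger ratio of 3.56, with 66.9 and 67.4 CPM in control, 61.3 and 59.1 CPM in HCC and 242.9 and 234.5 CPM in HCC/NAC livers. Among the 20 most abundant members, HCC/NAC means ranged from 77.2 to 1706 CPM, ratios from 2.00 to 4.60 and replicate folds within HCC/NAC from 1.01 to 1.34.

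**Figure D3:**
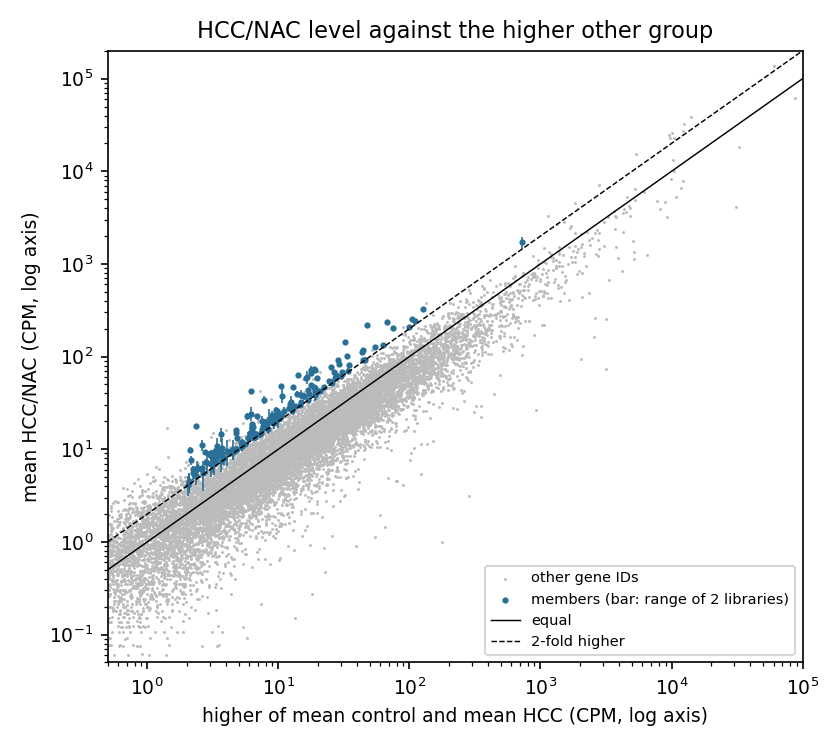
Mean HCC/NAC level against the higher of the mean control and mean HCC levels for the IDs with over 0.5 CPM in HCC (log axes), with the 161 members in blue and the range of their 2 HCC/NAC libraries as bars. Members lie above the dashed 2-fold line by the choice of the set, densely between 2 and 100 CPM, with 1 ID above 1000 CPM in HCC/NAC.

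At the other end, the member with the lowest HCC/NAC mean had 1.97 and 1.51 CPM in control, 1.93 and 2.15 CPM in HCC and 3.13 and 5.14 CPM in HCC/NAC livers. Both HCC/NAC libraries lay above the other 4, but they differed by 1.64-fold from each other. The narrowest separation and the widest HCC/NAC gap belonged to 1 ID, with 1.48 and 2.72 CPM in control, 3.24 and 2.10 CPM in HCC and 7.53 and 3.51 CPM in HCC/NAC livers. Its lower HCC/NAC library exceeded the highest HCC library by 1.08-fold, while the HCC/NAC libraries differed by 2.15-fold. The widest control gap was 2.85-fold, in an ID with 1.71 and 4.86 CPM in control, 2.82 and 3.62 CPM in HCC and 7.59 and 7.60 CPM in HCC/NAC livers. Over the 161 IDs the median fold between replicates was 1.17 for control, 1.1 for HCC and 1.13 for HCC/NAC libraries. Over the 11633 IDs with 2 to 1000 CPM in HCC and no library at 0 it was 1.13, 1.08 and 1.15. HCC/NAC replicates lay over 1.5-fold apart for 14 members, control replicates for 26 and HCC replicates for 4. HCC/NAC replicate 2 was the higher library for 95 members and replicate 1 for 66.

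The 3 members nearest to the 2-fold limit had ratios of 2.0012, 2.0026 and 2.0139. The first of them had 36.6 and 35.5 CPM in control, 48.0 and 43.6 CPM in HCC and 84.6 and 98.9 CPM in HCC/NAC livers. The 3 IDs just outside it that met every other condition had ratios of 1.9996, 1.9947 and 1.9938. The first of these had 4.31 and 4.56 CPM in control, 5.06 and 4.82 CPM in HCC and 11.3 and 8.43 CPM in HCC/NAC livers. The limit thus cuts through a continuous range: 524 IDs met the rule at a ratio of 1.5 and 30 at a ratio of 3.

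In the edgeR model fitted to all tested IDs, 156 of the 161 were called higher in HCC/NAC than in HCC, beside 11.2% of all IDs, and 161 of 161 higher than in control, beside 21.3%. The rule used both contrasts, so nothing is read from these counts. Median log2 fold changes were 1.32 against HCC and 1.48 against control, beside -0.05 and 0.05 over all IDs tested. The 5 IDs without a call against HCC had adjusted p-values of 0.0511 to 0.115 (edgeR), HCC/NAC levels of 3.13 to 7.53 CPM in single libraries and log2 fold changes of 1.02 to 1.13 with standard errors of 0.39 to 0.46. Their median fold between the HCC/NAC libraries was 1.57, beside 1.11 for the 156 that were called.

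Control and HCC levels of the members were near each other by the rule, but not identical. The median ratio of HCC to control was 1.12, with a range from 0.7 to 1.5, and 111 IDs had the higher mean in HCC. Both HCC libraries lay above both control libraries for 61 members, beside 38.3% of all IDs tested, and both below for 24, beside 34.0%. For the remaining 76 the groups overlapped. In HCC against control 12 members were called higher, beside 17.0% of all IDs, and 3 lower, beside 17.8%, together 15 beside 34.8% in either direction, again in a contrast that the rule used. The 12 had log2 fold changes of 0.35 to 0.55, and the 3 of -0.42 to -0.31. All 15 had a mean HCC level of at least 12.7 CPM. This count depended on single libraries: without control replicate 2 the called members numbered 29, and without HCC replicate 1 they numbered 9. Among the 61 IDs with HCC above control, HCC/NAC was a median of 2.41 times HCC and 3.07 times control. Among the 24 with HCC below control the medians were 3.18 and 2.59.

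The rule was also applied to the 3 libraries of 1 replicate number, and the picked IDs were read in the other 3. All 6 libraries had entered the choice of the 161, so this readout is not independent of that set. The rule picked 176 IDs in the replicate 1 libraries. In the replicate 2 libraries, 172 of them (97.7%) had a higher level in HCC/NAC than in both control and HCC, beside 27.5% of the 11821 IDs with 2 to 1000 CPM in that HCC library, and 98 (55.7%) reached 2 times both, beside 2.34%. In the reverse direction 187 IDs were picked, of which 177 (94.7%) were above both in the replicate 1 libraries, beside 30.3%, and 109 (58.3%) reached 2 times both, beside 2.61%. HCC/NAC was thus the highest group again for nearly all picked IDs. The IDs set beside them were not held to the HCC/control ratio that the picked IDs had to meet. Whether the pattern would recur in other animals was not tested, since the pools may share animals. The size of the difference was smaller where it had not been used to pick: the median ratio was 2.38 in the picking libraries and 2.12 and 2.13 in the others. Of the 176 and 187 IDs, 110 and 125 belong to the 161, and 82 met the whole rule in both sets of libraries.

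The recurrence of a 2-fold ratio differed with the level. Among IDs picked in replicate 1 with an HCC level of at least 10 CPM, 51 of 72 (70.8%) reached 2 times both other levels in replicate 2, against 47 of 104 (45.2%) below 10 CPM. For IDs picked in replicate 2 the counts were 51 of 68 (75%) and 58 of 119 (48.7%). With 1 library per group on each side these are counts without a test, and pools that share animals would also share their deviations.

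**Figure D4:**
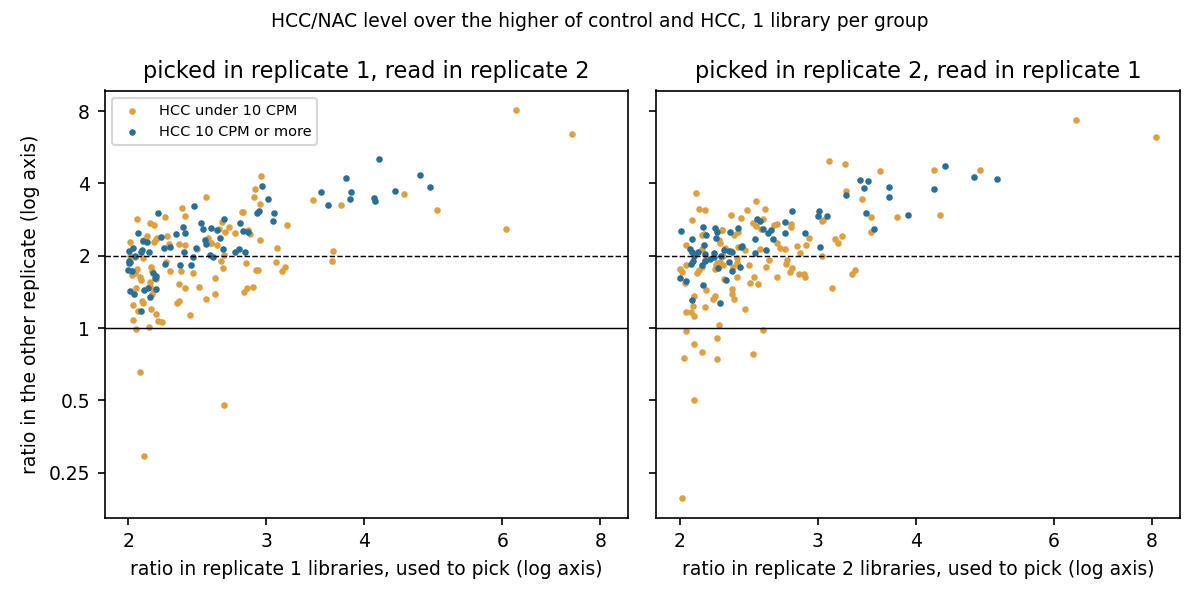
Ratio of the HCC/NAC level to the higher of control and HCC in the libraries of 1 replicate number, used to pick IDs (x axis), and in the other replicate (y axis), both on log axes, with IDs of under 10 CPM in HCC in orange. Most points lie above the solid line at 1, 172 of 176 on the left and 177 of 187 on the right, and the points below the dashed line at 2 include 57 and 61 of the low-level IDs.

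The libraries differed in composition and in their lowest counts. Totals ranged from 33917707 to 37717373 counts. TMM factors were 0.91 to 0.92 in control and HCC/NAC and 1.18 and 1.19 in HCC libraries. The 10 IDs most abundant by their mean share took 21.3% and 21.5% of counts in control, 24.9% and 25.1% in HCC and 37.5% and 37.8% in HCC/NAC libraries. Where the other replicate had 20 to 50 counts, an ID was at 0 in 13.4% and 10.9% of cases in HCC/NAC replicates 1 and 2, in 11.5% and 2.95% in the control replicates and in 0.115% and 0.46% in the HCC replicates. With 104 counts or more in each HCC/NAC library, the members lay above this range there, while 5 members had a library of another group under 50 counts. The rule itself required this in HCC/NAC, since an ID at 0 in an HCC/NAC library could not become a member. The 4 carcinogen-treated libraries share a prefix in their deposited names that differs from that of the control libraries; if it marks a handling difference, this and the carcinogens cannot be told apart in comparisons with control, whereas HCC/NAC and HCC have the same prefix.

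Membership also depended on the scaling. RLE and upper-quartile scaling each gave 188 IDs, of which 160 and 149 belong to the 161. With CPM relative to the plain library total the rule gave 56, of which 51 belong to them. On that scale the median member had an HCC level 1.45 times control and an HCC/NAC level 1.93 times HCC, since the HCC libraries lose their TMM factor. The median log2 fold change of HCC/NAC against HCC over all IDs moved to -0.42, from -0.05 with TMM. Both HCC/NAC libraries still lay above the other 4 for 160 of the 161, but 90 were under 2 times HCC and 63 had HCC over 1.5 times control. Under all 3 other scalings 51 members met the rule. In the 6 sets that leave out 1 library the rule gave 155 to 180 IDs, and 86 of the 161 were members in all 6. Both conditions were met by 43, among them 20 of the 30 members with a ratio of at least 3.

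For comparison, the rule was applied with the groups' roles exchanged. The mirror pattern, IDs at least 2 times less abundant in HCC/NAC than in both other groups, was found for 339 IDs beside the 161. IDs set apart in HCC, with HCC/NAC close to control, numbered 49 higher and 80 lower. IDs set apart in control, with HCC and HCC/NAC close to each other, numbered 403 higher and 637 lower. The level limit was on the HCC mean where HCC/NAC or control was set apart, and on the control mean where HCC was. With TMM, the limits on level and ratio left 7198 IDs for HCC/NAC, 5661 for HCC and 7969 for control. Of these, 2.24%, 0.866% and 5.06% were higher, and 4.71%, 1.41% and 7.99% lower. IDs higher in HCC/NAC only outnumbered those in HCC only and were outnumbered by those in control only under TMM, RLE and upper-quartile scaling. With the plain library total, 56 IDs were higher in HCC/NAC only, 225 in HCC only and 201 in control only. Lower IDs outnumbered higher ones in HCC/NAC under each scaling, with 293 against 188 under RLE, 281 against 188 under upper-quartile scaling and 736 against 56 with the library total. These counts describe 6 libraries, and no test of their differences was made. Of the 339 lower IDs, 175 had an HCC level under 10 CPM. The zeros of the HCC/NAC libraries described above were measured by the count in the other replicate, not by the HCC level. The part of such zeros in the 339 was not tested.

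**Figure D5:**
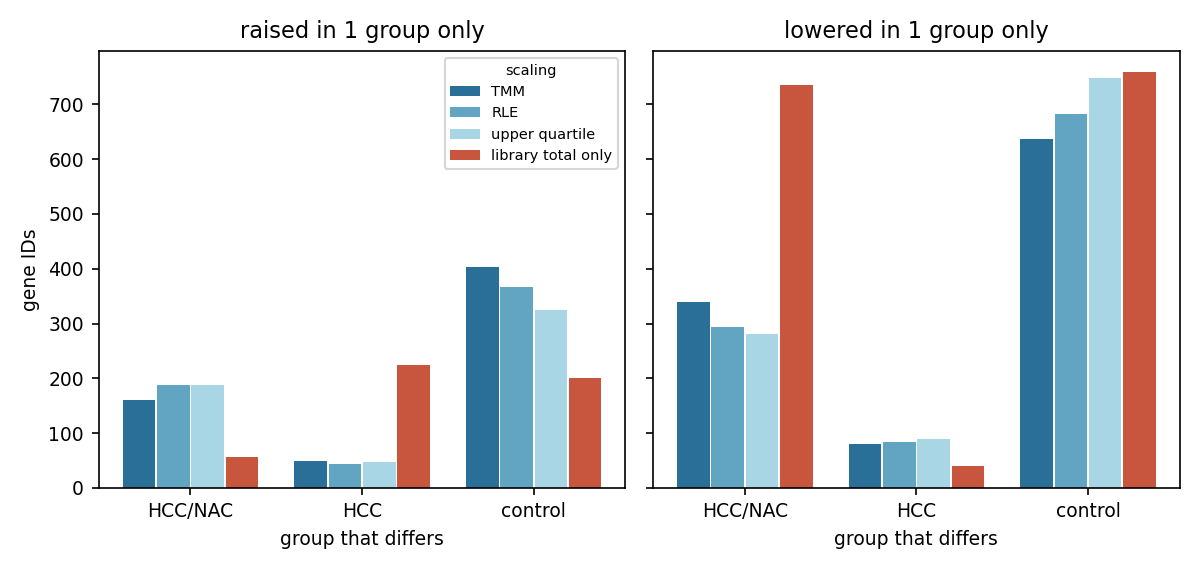
Number of IDs higher (left) or lower (right) in 1 group while the other 2 lie within 0.67 to 1.5 of each other, by the group that differs and by scaling (bars). With TMM 161 IDs are higher and 339 lower in HCC/NAC only; scaling by the library total alone gives 56 and 736.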

How the data were processed

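The authors deposited 1 table of raw, unnormalized counts for each of the 6 libraries, with 43360 Ensembl IDs, of which 19392 had no count in any library. The submitters' processing notes name STAR, featureCounts, FastQC and edgeR, with no roles. The versions, build, annotation, strand setting and duplicate handling were not given in the sources used here. How reads of paralogs or overlapping genes were counted is likewise not stated.

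The analysis used edgeR 4.0.16 (R 4.3.3): filterByExpr by group (16898 IDs, at least 99.95% of counts), TMM, and 1 quasi-likelihood model over all 6 libraries with a mean per group (3 residual degrees of freedom, shared because 2 libraries per group say little alone). Calls use a Benjamini-Hochberg adjusted p under 0.05 over all IDs. Standard errors come from the F statistic. The script was tested on simulated data. Members, lists and comparisons were chosen with earlier results of these data known. No ID matched a symbol in the 47357-gene table, so the 35 lists of pathway and cell type genes had no measured member and their planned counts were not made. The rule for named IDs allowed the 2 largest ratios and the 2 highest levels; only the first 2 are printed as IDs, and other single members, some picked after their values were seen, are given by rank. Alternatives were other scalings (RLE, upper quartile, none), filters, thresholds, DESeq2 1.42.0, a replicate block, the compared groups only, and leaving out each library. The replicate readout and exchanged roles were added after the data were seen.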

Additional observations from a re-analysis of the deposited data

How the results depend on the processing

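The number of members, 161 as reported, was 151 to 188 under other filters and the RLE and upper-quartile scalings, 56 without scaling beyond the library total, and 155 to 180 without 1 library. Changing the rule itself gave 524 at 1.5-fold, 30 at 3-fold, 64 at a mean HCC level of at least 10 CPM and 112 with a narrower range of HCC/control ratios. Members called in HCC against control, 15 as reported, numbered 64 without scaling and 9 to 29 without 1 library. Members called in HCC/NAC against HCC, 156 as reported, numbered 140 without scaling and 156 to 159 under the other settings that kept both replicates. Against control, 161 as reported, they numbered 160 to 161 under those settings. Both counts were lower in the fits without 1 HCC or HCC/NAC library. The count against control was also lower in the fits without 1 control library. The rule had used both contrasts, so nothing is read from these counts. IDs picked in replicate 1 or 2 that reached 2-fold in the other numbered 33 of 57 (57.9%) and 34 of 68 (50%) without scaling, beside 98 of 176 (55.7%) and 109 of 187 (58.3%) as reported.

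The replicate numbers pair no samples by the labels, and deviations of same-numbered libraries correlated across IDs with r = 0.0028 to 0.0079. With the replicate number as a block 156 members were called against HCC, 161 against control and 17 in HCC against control; the block changed no call of the 2 named IDs. At 2 libraries per group, low counts limit the precision of the weaker members most.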
